A study of Mus musculus with 9 samples.

Results

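The nuclear genes of the mitochondrial respiratory chain were followed in mouse peritoneal macrophages. Members were the protein-coding genes whose GENCODE M21 symbol starts with Ndufa, Ndufb, Ndufc, Ndufs, Ndufv, Uqcr, Cox4i, Cox5, Cox6, Cox7, Cox8 or Atp5, or is Sdha, Sdhb, Sdhc, Sdhd or Cyc1. A mean FPKM (fragments per kilobase of transcript, scaled to the size of the library) of at least 1 over the 9 libraries was also required. Of 54059 genes in the table, 107 matched these symbols and 94 of them were protein-coding. The filter was passed by 87, which are 35 subunits of complex I, 4 of complex II, 9 of complex III, 13 of complex IV, 16 of complex V and 10 assembly factors.

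The macrophages came from C57BL/6 mice aged 8 weeks, 3 days after 1 ml of starch broth had been injected into the peritoneum. Adherent cells from wild-type (WT) mice, from M-Shp2-/- mice and from WT mice with SHP099 pretreatment (10 µM, 2 h) gave 3 libraries each, and the study's methods place all groups under imiquimod (IMQ, a TLR7 agonist; 10 µg/ml, 4 h). The sample labels do not state the IMQ treatment, and untreated cells were not analysed here. SHP099 is an allosteric inhibitor of the phosphatase SHP2, and M-Shp2-/- mice carry floxed Shp2 with Lyz2-cre, which acts in monocytes, macrophages and granulocytes and leaves Shp2 intact in other cells of the lavage. The labels do not say whether libraries of a group came from separate mice, so the replicates may be technical and the p-values measure only the spread between these samples.

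Complexes I to IV pass electrons from NADH and succinate to oxygen, complexes I, III and IV pump protons across the inner mitochondrial membrane, and complex V (ATP synthase) uses the gradient to make ATP. Subunits come mostly from nuclear genes and partly from mitochondrial DNA, and assembly factors join them without being part of the finished complex. In macrophages activated through Toll-like receptors, metabolism is known to shift towards glycolysis, and succinate dehydrogenase (complex II) is known as a control point of the inflammatory response.

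Ptpn11, the gene of SHP2, had an FPKM of 45.8, 44.0 and 40.0 in the 3 WT libraries, 18.6, 17.8 and 18.9 in M-Shp2-/-, and 43.0, 42.1 and 39.6 with SHP099. All 3 M-Shp2-/- libraries lay below every other library, with 42.5% of the WT mean left. The log2 fold change was -1.19 against WT (SE 0.10, limma adjusted p = 0.0168) and -1.13 against SHP099 (SE 0.08, limma adjusted p = 0.0109). SHP099 and WT overlapped (log2 fold change -0.05, SE 0.09, limma adjusted p = 0.729). The RNA of all cells in a sample was pooled, so fewer cells of a type and less RNA per cell cannot be told apart. FPKM is given for the whole gene. It does not separate intact RNA from RNA lacking the floxed part, and it does not measure SHP2 protein.

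Levels across the chain spanned from a mean of 2.47 FPKM for Ndufb2 to 893 FPKM for Atp5b. The median member of complex IV stood at 161 FPKM, that of complex V at 114, of complex III at 108, of complex II at 67.9, of complex I at 57.0 and of the assembly factors at 7.98 FPKM, against 13.9 FPKM over the 11450 genes tested. The most abundant members were Atp5b, the catalytic beta subunit of ATP synthase, and the complex IV subunits Cox4i1 and Cox6a1. Atp5b was at 864 ± 73.8 FPKM in WT, 929 ± 73.3 in M-Shp2-/- and 886 ± 24.1 with SHP099 (SD, n = 3 each).

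**Figure D1:**
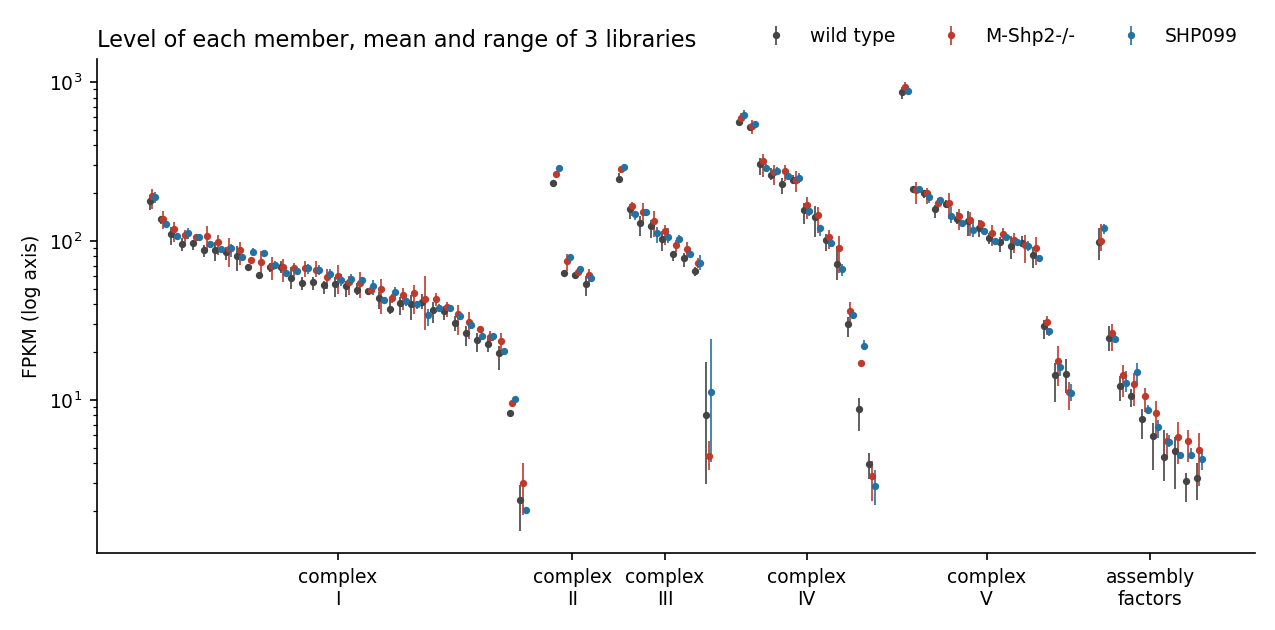
FPKM of the 87 members on a log axis, ordered by level within each complex. Points are means and bars run from the lowest to the highest of the 3 libraries of WT (black), M-Shp2-/- (red) and SHP099 (blue). The median member of complex IV was at 161 FPKM and that of the assembly factors at 7.98 FPKM, and the widest bars belong to Uqcrc1 in complex III.

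Some levels were unequal within a complex whose subunits are built in together. Ndufs3, a core subunit of complex I, was listed at 0 in 6 of 9 libraries and at 0.0562, 0.0664 and 0.0696 FPKM in WT replicate 2 and M-Shp2-/- replicates 1 and 2, below the filter. Uqcrc1, a core protein of complex III, was at 3.81, 2.98 and 17.4 FPKM in WT, 5.55, 4.22 and 3.64 in M-Shp2-/-, and 5.46, 24.3 and 4.06 with SHP099. Its partner Uqcrc2 lay between 69.0 and 98.6 FPKM in every library. Atp5a1, the alpha subunit that alternates with Atp5b in the catalytic head, was at only 8.63 to 18.1 FPKM. These values are given as listed and not as levels of the transcripts, since how reads were assigned in the authors' annotation was not tested. In GENCODE M21 neither Uqcrc1 nor Atp5a1 has a near-identical copy, and 0% and 4.12% of their exons overlap another gene. Of the 87 members, 11 had a near-identical copy elsewhere in the annotation and 12 shared more than 10% of their exons with another gene, among them Ndufaf2 (65.7%), Atp5o (47.9%) and, with Itgad on the other side, Cox6a2 (10.3%).

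Besides Ndufs3, the protein-coding genes under the filter were tissue forms. Cox7b2 and Cox8c were listed at 0 in all 9 libraries, Cox4i2 and Cox8b stayed under 0.11 FPKM, Ndufa4l2 under 0.35 and Cox6b2 at up to 1.03 FPKM. Of the list of 7 tissue or hypoxia forms, which did not hold Cox7b2, Cox6a2 and Cox7a1 passed.

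Across the series values ran higher in the M-Shp2-/- and SHP099 groups: the median log2 fold change of all 11450 genes tested was 0.15 in M-Shp2-/- against WT, 0.13 in SHP099 against WT and 0.02 in M-Shp2-/- against SHP099. Member changes are therefore also given relative to these medians, which were about 0 once libraries were scaled by the median of ratios. WT replicate 3 had the lowest size factor (0.849), and without it the medians against WT were 0.08 and 0.06. The values rest on 39839389 to 50985460 reads per library.

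No member was called between M-Shp2-/- and WT (0 of 87 higher and 0 of 87 lower; limma adjusted p of at most 0.05), where 0% of all genes were called higher and 0.0873% lower. At an unadjusted p under 0.05 there were 3 members, and 0 passed with limma's voom on recovered reads. The groups did not overlap for 9 of 87 members, all higher in M-Shp2-/- (10.3%, against 16.0% of all genes tested), and for 0 members lower (against 3.07%). The members' median log2 fold change was 0.15, the same as that of all genes (relative median 0.00).

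Between SHP099 and WT, 2 of 87 members were called higher (Cox6a2 and Ndufs7; 4.55% of all genes were) and 0 lower (2.41% of all genes were). The balance over all genes, 521 of 797 calls higher, turned to 200 of 575 with median-of-ratios scaling and 215 of 593 with length and GC correction. The groups did not overlap for 17 members higher with SHP099 (19.5%, against 27.9% of all genes) and for 1 lower, Ndufa12 (against 6.77%). The relative median was -0.05. Both shares of non-overlapping members lay under the background.

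Between M-Shp2-/- and SHP099, 0 of 87 members were called in either direction (0.0262% of all genes were higher and 0.0437% lower), with 1 member at an unadjusted p under 0.05 and 0 by voom. Non-overlapping groups were found for 0 members higher in M-Shp2-/- (7.90% of all genes) and for 3 lower, Ndufa8, Sdha and Cox6a2 (against 9.76%). The WT libraries are shared by the first 2 comparisons, and each group enters 2 of the 3. With 3 libraries a group, exact permutation could reach no p under 0.1.

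The member with the largest change in both comparisons with WT was Cox6a2, the heart and skeletal muscle form of a complex IV subunit. Its FPKM was 9.55, 10.3 and 6.40 in WT, 16.6, 17.2 and 17.8 in M-Shp2-/-, and 24.0, 20.7 and 20.7 with SHP099. The 3 groups did not overlap, with WT lowest and SHP099 highest. The log2 fold change was 1.25 with SHP099 (SE 0.17, limma adjusted p = 0.0151) and 0.92 in M-Shp2-/- (SE 0.18, limma adjusted p = 0.375), both against WT. The SHP099 call was lost when any SHP099 replicate was left out (limma adjusted p of 0.0606 to 0.0888) and without the filter on low values, while the log2 fold change stayed between 1.06 and 1.37 with each replicate left out. The common form Cox6a1 was at 524 ± 20.8 FPKM in WT, 529 ± 55.7 in M-Shp2-/- and 546 ± 14.0 with SHP099 (SD, n = 3 each), so that Cox6a2 remained a minor share of the 2 forms. Cox7a1, the other muscle form that passed the filter, had an FPKM of 3.94 ± 0.750 in WT, 3.31 ± 0.938 in M-Shp2-/- and 2.86 ± 0.712 with SHP099 (SD, n = 3 each), with overlapping groups.

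The promoters of the 4 members with the smallest p with SHP099 against WT among the 70 of 87 members found by symbol in the promoter table are shown to let the shared motifs of respiratory chain promoters be seen beside their values. They are RefSeq sequences of GRCm38.p6, 250 bases before to 50 after the annotated start, on the strand of the gene, and capitals mark matches on either strand to GCGCATGC (the core of the NRF1 motif), CCGGAAG (an ETS motif bound by GABPA) or AAGATGGC (a YY1 motif). Ndufs7 lies at chr10:80249199-80249498 (plus strand), Sdha at chr13:74350191-74350490 (minus), Ndufa8 at chr2:36049289-36049588 (minus) and Sdhb at chr4:140961021-140961320 (plus).
Ndufs7: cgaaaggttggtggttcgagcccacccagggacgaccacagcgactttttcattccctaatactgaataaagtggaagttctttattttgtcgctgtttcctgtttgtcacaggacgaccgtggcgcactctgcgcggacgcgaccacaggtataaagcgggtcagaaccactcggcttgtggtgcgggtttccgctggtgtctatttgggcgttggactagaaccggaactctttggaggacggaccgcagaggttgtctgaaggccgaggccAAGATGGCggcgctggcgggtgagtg
Sdha: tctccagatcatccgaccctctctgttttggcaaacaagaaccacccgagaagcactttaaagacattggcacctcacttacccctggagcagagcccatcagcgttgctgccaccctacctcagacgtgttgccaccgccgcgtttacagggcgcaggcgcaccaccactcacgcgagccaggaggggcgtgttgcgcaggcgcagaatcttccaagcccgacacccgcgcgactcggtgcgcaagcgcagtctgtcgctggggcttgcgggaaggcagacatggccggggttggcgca
Ndufa8: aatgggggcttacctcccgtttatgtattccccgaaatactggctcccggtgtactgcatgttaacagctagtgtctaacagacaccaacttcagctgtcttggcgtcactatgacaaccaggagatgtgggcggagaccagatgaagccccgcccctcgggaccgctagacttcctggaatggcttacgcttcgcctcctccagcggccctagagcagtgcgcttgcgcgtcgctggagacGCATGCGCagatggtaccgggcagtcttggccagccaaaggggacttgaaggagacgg
Sdhb: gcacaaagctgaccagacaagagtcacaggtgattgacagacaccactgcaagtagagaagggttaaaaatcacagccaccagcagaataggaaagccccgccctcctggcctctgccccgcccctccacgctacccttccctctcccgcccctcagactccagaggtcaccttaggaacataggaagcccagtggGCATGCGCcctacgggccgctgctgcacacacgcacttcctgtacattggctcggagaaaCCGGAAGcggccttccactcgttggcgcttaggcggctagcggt
Ndufs7 held a YY1 match, Ndufa8 an NRF1 match, Sdhb an NRF1 and an ETS match, and Sdha held none of these letters in the window. Over 75 promoters of the members, 16.0% held the NRF1 core, 22.7% the ETS motif and 13.3% the YY1 motif, against 5.55%, 19.3% and 4.88% of 10542 promoters of genes tested and 2.71%, 8.86% and 2.75% of all 32851 promoters of the same length. A match is a description of the sequence and not a measured site of binding.

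In the redox and quinone-binding core of complex I, 6 of 7 genes were tested. Ndufs7, which carries the last iron-sulfur cluster before ubiquinone and has the YY1 match shown above, was at 62.3, 61.8 and 60.5 FPKM in WT, 86.0, 74.3 and 61.6 in M-Shp2-/-, and 86.5, 78.9 and 88.4 with SHP099. Every SHP099 library lay above every WT library, whereas M-Shp2-/- replicate 3 fell among the WT values. Its log2 fold change was 0.45 with SHP099 against WT (SE 0.08, limma adjusted p = 0.0236) and 0.25 in M-Shp2-/- (SE 0.13, limma adjusted p = 0.495). Relative to all genes the SHP099 change was 0.32, and the call was lost with median-of-ratios scaling (limma adjusted p = 0.114), with length and GC correction (0.0872), without the filter, in a fit of all 9 libraries, and with 5 of the 6 replicates left out in turn.

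Ndufs8, which binds the neighbouring clusters, was at 37.3 ± 4.40 FPKM in WT, 43.8 ± 2.84 in M-Shp2-/- and 47.9 ± 3.41 with SHP099 (SD, n = 3 each). Ndufv1, the NADH-binding subunit, was at 54.5 ± 5.21, 68.0 ± 7.99 and 67.4 ± 4.93 FPKM in the same order. For both genes the SHP099 libraries lay above the WT libraries, with log2 fold changes of 0.36 and 0.30 that were not called (limma adjusted p = 0.0915 and 0.111). Ndufs1 and Ndufv2, which also carry iron-sulfur clusters, had log2 fold changes of 0.04 and 0.06 with SHP099, and their groups overlapped.

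Over all 35 tested subunits of complex I, the relative median was 0.02 in M-Shp2-/- and -0.03 with SHP099 against WT; the latter turned to 0.01 with length and GC correction and also passed 0 under quantile normalization. Without M-Shp2-/- replicate 3 the former was 0.11, and without WT replicate 3 they were -0.01 and -0.05. Ndufa3 and Ndufa1 were the most abundant, at 179 ± 19.0 and 138 ± 9.07 FPKM in WT. Ndufb2, the lowest, was at 2.65, 2.93 and 1.50 FPKM in WT, 3.11, 4.02 and 1.90 in M-Shp2-/-, and 1.91, 2.11 and 2.08 with SHP099. Ndufa8, an accessory subunit, was higher in all SHP099 libraries (84.5, 91.0 and 82.1 FPKM) than in M-Shp2-/- (79.2, 73.3 and 75.5) and in WT (68.9, 70.0 and 66.9). Its change with SHP099 of 0.32 was just outside the threshold (SE 0.07, limma adjusted p = 0.0508). Ndufa12, another accessory subunit, was at 39.9, 37.5 and 46.1 FPKM in WT and 37.4, 36.1 and 29.3 with SHP099, and spread from 27.8 to 60.0 FPKM within M-Shp2-/-.

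Complex II, which oxidises succinate in the citrate cycle, was the class with the largest share of subunits without overlap between SHP099 and WT. These were 3 of its 4 genes, Sdha, Sdhb and Sdhd, higher with SHP099 (27.9% of all genes did so), and 0 of 4 were called. Relative to all genes the change of Sdhd was -0.004, so that it rose no more than the median gene. Sdha, the flavoprotein, was at 239, 237 and 222 FPKM in WT, 272, 253 and 265 in M-Shp2-/-, and 293, 292 and 279 with SHP099. The 3 groups were ordered without overlap, WT lowest and SHP099 highest. The log2 fold change against WT was 0.31 with SHP099 (SE 0.07, limma adjusted p = 0.0505) and 0.18 in M-Shp2-/- (SE 0.08, limma adjusted p = 0.478).

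Sdhb, the iron-sulfur subunit, was at 65.3, 63.0 and 60.5 FPKM in WT, 82.4, 76.6 and 64.9 in M-Shp2-/-, and 74.7, 82.2 and 79.8 with SHP099. The SHP099 libraries were all above WT, and M-Shp2-/- replicate 3 again lay within the WT range. The change with SHP099 was 0.32 (SE 0.08, limma adjusted p = 0.0519). Sdha and Sdhb both passed with a minimum mean FPKM of 5 (limma adjusted p = 0.0448 and 0.0453). Fewer genes are tested there, and 889 of 8285 were called. The membrane anchors Sdhc and Sdhd had a log2 fold change of 0.12 each with SHP099, close to that of all genes. The relative median of complex II was 0.09 with SHP099 and 0.03 in M-Shp2-/-, and it stayed above 0 under each scaling (0.07 to 0.14 and 0.02 to 0.11); without WT replicate 3 it was 0.13 and 0.02, and without M-Shp2-/- replicate 3 the latter was 0.05.

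**Figure D2:**
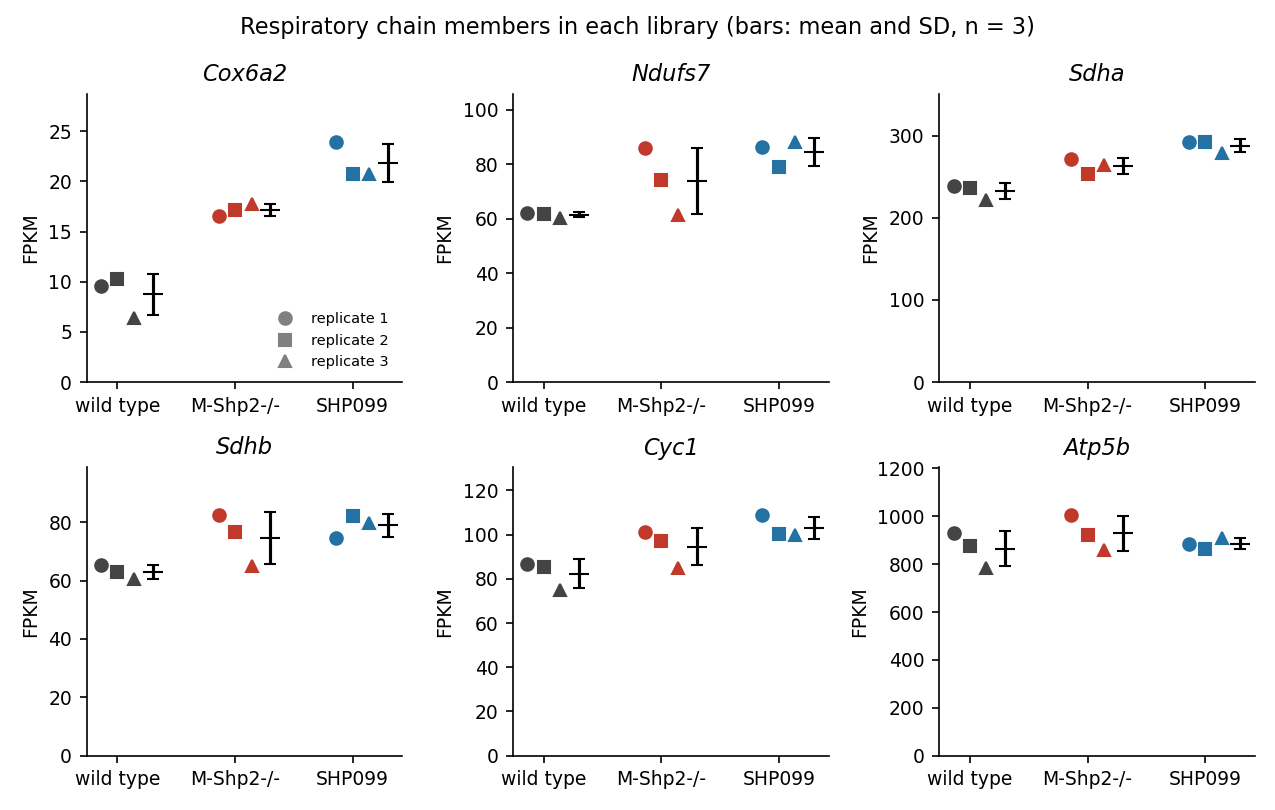
FPKM of 6 members in each library (y axis, from 0) for the 3 groups (x axis). Symbols mark the replicate number, and the bar beside each group is the mean with its SD (n = 3). For Cox6a2 and Sdha the 3 groups did not overlap, while Atp5b overlapped between all groups.

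In complex III, Cyc1 (cytochrome c1) was at 82.4 ± 6.45 FPKM in WT, 94.6 ± 8.45 in M-Shp2-/- and 103 ± 4.97 with SHP099 (SD, n = 3 each). The SHP099 libraries lay above WT, with a log2 fold change of 0.32 that was not called (SE 0.09, limma adjusted p = 0.0694). Uqcrfs1, the Rieske iron-sulfur protein, was at 64.4 ± 4.18, 72.6 ± 4.95 and 72.9 ± 8.01 FPKM in WT, M-Shp2-/- and SHP099 (SD, n = 3 each), with overlapping groups. Uqcrq, the most abundant subunit, was at 246 ± 18.7, 283 ± 6.59 and 292 ± 13.7 FPKM, and both other groups lay above WT. Uqcrb followed at 160.3 ± 19.2, 166 ± 19.0 and 149 ± 10.8 FPKM. Uqcrc1 had the lowest log2 fold change of all members in M-Shp2-/- against WT (-0.38) and against SHP099 (-0.79), with standard errors of 0.56 and 0.57 and the 2 high libraries given above among its values. Over the 9 subunits the relative median was 0.02 in M-Shp2-/- and 0.05 with SHP099, and the former was 0.08 without M-Shp2-/- replicate 3 and 0.01 without WT replicate 3.

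Apart from Cox6a2, 0 of the other 12 members of complex IV were called. Cox4i1 was at 565 ± 10.7 FPKM in WT, 597 ± 52.2 in M-Shp2-/- and 618 ± 46.2 with SHP099 (SD, n = 3 each). Ndufa4, first described with complex I and now assigned to complex IV, was at 93.3, 64.0 and 56.7 FPKM in WT, 107, 102 and 63.1 in M-Shp2-/-, and 60.6, 71.3 and 67.4 with SHP099. Its M-Shp2-/- replicates 1 and 2 were high and replicate 3 lay with the SHP099 libraries; the log2 fold change of 0.41 between these groups was the highest of all members (SE 0.20, limma adjusted p = 0.446). The relative median of complex IV was -0.07 in M-Shp2-/- and -0.10 with SHP099, and both turned positive under quantile normalization (0.05 and 0.01), and the former was 0.02 without M-Shp2-/- replicate 3, the latter -0.05 without WT replicate 3.

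Complex V had the lowest relative median of the 5 complexes with SHP099, -0.18, and it stayed below 0 under each scaling (-0.20 to -0.13). Atp5e, the epsilon subunit of the catalytic head, was at 181, 173 and 163 FPKM in WT, 201, 186 and 138 in M-Shp2-/-, and 129, 136 and 165 with SHP099. SHP099 replicate 3 overlapped WT, and the log2 fold change was -0.27 (SE 0.11, limma adjusted p = 0.168). Atp5a1 had the lowest log2 fold change of all members with SHP099, -0.36 (SE 0.18, limma adjusted p = 0.256), at 14.7 ± 3.54 FPKM in WT, 11.2 ± 2.29 in M-Shp2-/- and 11.0 ± 1.43 with SHP099 (SD, n = 3 each). The other head subunits Atp5b, Atp5c1 and Atp5d had log2 fold changes of 0.04, 0.12 and 0.08, which are -0.09, -0.01 and -0.05 relative to all genes.

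Subunit c of the membrane ring is made from 3 genes that encode the same mature protein. Atp5g3 and Atp5g2 held most of their transcripts, at 159 ± 15.9 and 139 ± 13.2 FPKM in WT, and Atp5g1 was at 14.4 ± 4.08 FPKM (SD, n = 3 each). With SHP099 they were at 181 ± 10.7, 130.3 ± 3.40 and 16.2 ± 2.01 FPKM, and none was called. Atp5j, the second most abundant gene of complex V, was at 212 ± 11.1, 209 ± 33.6 and 212 ± 9.04 FPKM in WT, M-Shp2-/- and SHP099. In M-Shp2-/- against WT the relative median of complex V was -0.07, and -0.01 without M-Shp2-/- replicate 3.

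The 10 assembly factors had relative medians of 0.15 in M-Shp2-/- and 0.13 with SHP099, above 0 under each scaling (0.05 to 0.19 and 0.06 to 0.16), and 0 of 10 were called. These were higher than those of the 5 complexes, but not under quantile normalization, where complex II had 0.11 and 0.14 and the assembly factors 0.05 and 0.09, nor with SHP099 at a pseudocount of 5 (0.12 and 0.06). Without WT replicate 3 these medians were 0.08 and 0.02, the latter below complex II (0.13) and complex III (0.04), and without M-Shp2-/- replicate 3 the former was 0.28. Ndufaf7, a methyltransferase needed to assemble complex I, was at 3.49, 3.49 and 2.29 FPKM in WT, 6.50, 5.89 and 4.08 in M-Shp2-/-, and 5.02, 4.34 and 4.23 with SHP099. Both other groups lay above WT. The log2 fold change was 0.66 in M-Shp2-/- (SE 0.21, limma adjusted p = 0.455) and 0.45 with SHP099 (SE 0.17, limma adjusted p = 0.147).

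Ndufaf5, a hydroxylase of Ndufs7, was at 4.77 ± 1.75, 5.83 ± 1.69 and 4.50 ± 0.0507 FPKM in WT, M-Shp2-/- and SHP099. Ndufaf2, a chaperone of complex I, was at 10.6 ± 1.44 FPKM in WT, 12.6 ± 3.00 in M-Shp2-/- and 15.0 ± 2.13 with SHP099 (SD, n = 3 each), a log2 fold change of 0.47 with SHP099 (SE 0.14, limma adjusted p = 0.0952). Atp5s (also distal membrane arm assembly component 2 like) was at 3.21 ± 0.821, 4.88 ± 1.76 and 4.24 ± 0.661 FPKM in the same order, and Ndufaf8, the partner of Ndufaf5, at 24.4 ± 4.44, 26.3 ± 5.31 and 24.1 ± 1.54 FPKM. Cox7a2l, a factor of supercomplex assembly, was at 76.4, 97.3 and 121 FPKM in WT, 86.8, 87.1 and 127 in M-Shp2-/-, and 110.1, 123 and 128 with SHP099. Unlike most members it was highest in replicate 3 of WT and of M-Shp2-/-. The relative median of the assembly factors in WT replicate 3 was -0.33, against -0.01 in each of WT replicates 1 and 2.

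**Figure D3:**
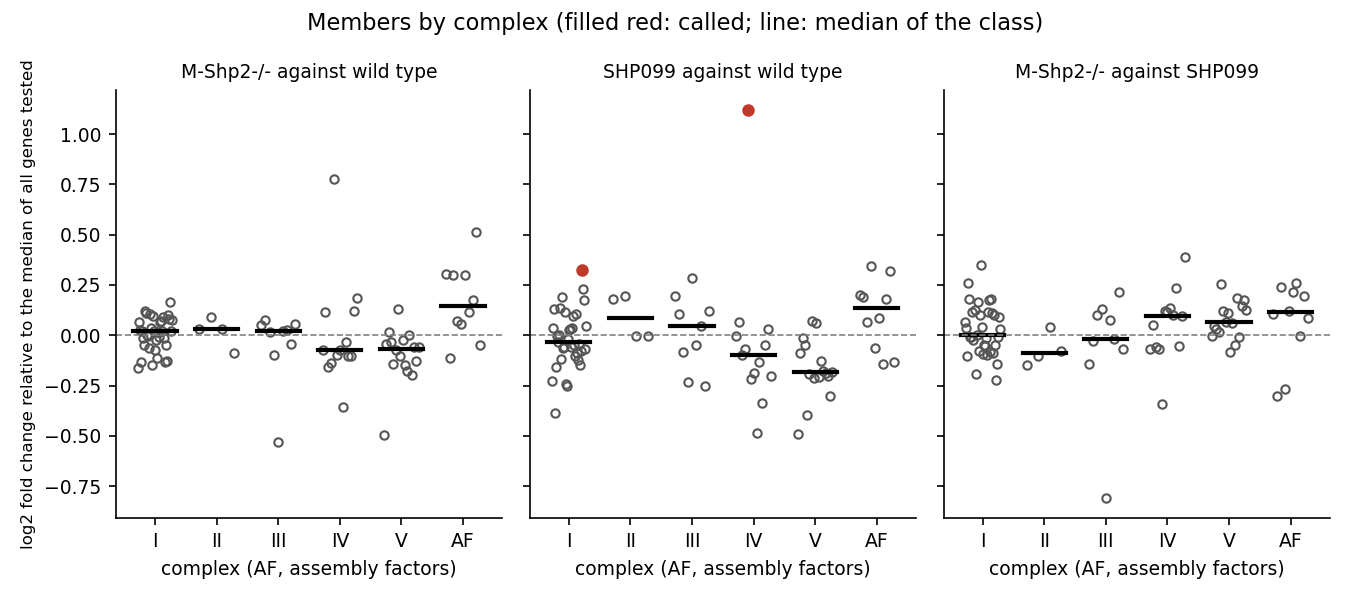
Log2 fold change of each member minus the median of all genes tested (y axis) by complex (x axis) in the 3 comparisons. Filled red circles are members called at a limma adjusted p of at most 0.05, open circles all others, and black lines the median of each class. Cox6a2 and Ndufs7 are the filled circles with SHP099 against WT, and complex V has the lowest median there (-0.18).

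The members also differed between libraries of a group. Relative to all genes, the median member stood at 0.09, 0.01 and -0.05 (log2) in the 3 WT libraries, at 0.09, 0.11 and -0.16 in M-Shp2-/-, and at -0.11, -0.02 and 0.01 with SHP099. M-Shp2-/- replicate 3 was the lowest of the 9, and its 5 complexes and the assembly factors were all under 0 (-0.18 to -0.09). Without it, 22 of 87 members were called between M-Shp2-/- and SHP099, 20 higher in M-Shp2-/- and 2 lower, where 12.0% of all genes were called higher and 7.89% lower. The 20 were 8 of complex I, 4 of complex IV, 6 of complex V and 2 assembly factors, the 2 lower ones were Cox6a2 and Cox7a2l, and 0 came from complexes II and III. Against WT, 0 members were called without it, and the relative median of the members was 0.07. Related sets differed: in this library mitochondrial ribosomal proteins stood at -0.10, import genes at -0.11, other assembly factors at -0.05, electron carriers at -0.02, the citrate cycle at 0.00, mtDNA-encoded subunits at 0.02 and biogenesis regulators and the coupling list at 0.05 each. Without it 15 of 76 mitochondrial ribosomal proteins were called higher against SHP099 and 0 lower. These fits rest on 2 M-Shp2-/- libraries.

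**Figure D4:**
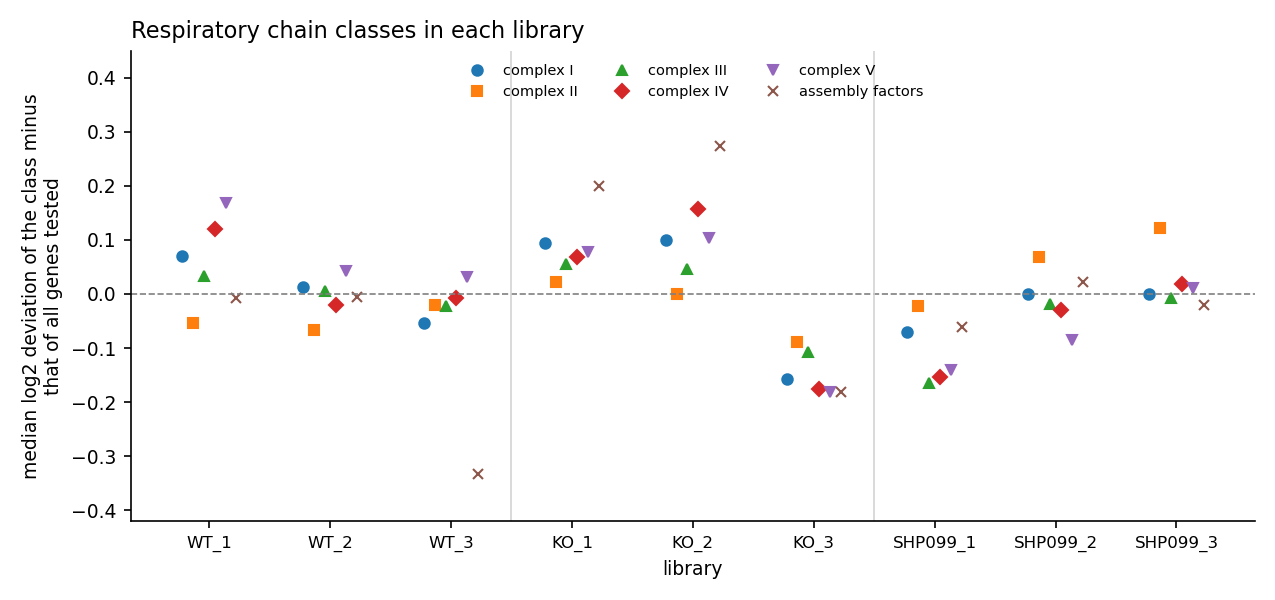
Median log2 deviation of each class of members from its mean over the 9 libraries, minus the same median over all genes tested (y axis), for every library (x axis). Each symbol is a class. In M-Shp2-/- replicate 3 all classes lie below 0 (-0.18 to -0.09), and in WT replicate 3 the assembly factors are at -0.33.

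Markers of other cells were uneven between the same libraries. Not every list of them is given here, and a list left out holds a call lower with SHP099 against WT. The 10 fibroblast and mesothelial markers (7 of them tested, 0 called against WT) summed to 70.0, 315 and 47.7 FPKM in WT, 142, 55.3 and 600.4 in M-Shp2-/-, and 369.5, 144 and 107 with SHP099. Their most abundant gene, Col1a1, was highest in its group in M-Shp2-/- replicate 3 (206 FPKM) and SHP099 replicate 1 (166 FPKM), where the members were lowest in their groups. In WT it was lowest in replicate 3 (10.0 FPKM), which also had the lowest members of its group, and highest in replicate 2 (101 FPKM).

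The 8 neutrophil markers summed to 42.1 to 103 FPKM, mostly from S100a8, and were highest in WT replicate 2 and M-Shp2-/- replicate 3. T and NK cell markers summed to at most 6.44 FPKM with 0 of 8 tested (the most abundant was Cd3g), and those of mast cells and eosinophils to 5.98, 4.38 and 5.32 FPKM in WT, 3.20, 3.68 and 1.28 in M-Shp2-/-, and 0.691, 0.508 and 0.981 with SHP099, led by Kit (not called), with Fcer1a at 0 in every library. All 8 macrophage markers were expressed, summing to 7468 to 13736 FPKM. Lyz2 led them and was lower in M-Shp2-/- (4863, 4743 and 5407 FPKM) than in WT (7440.3, 10228 and 7951). M-Shp2-/- mice carry Lyz2-cre, and the part of this driver in the Lyz2 values was not tested. In M-Shp2-/- against WT 6 of these 8 had a negative log2 fold change, with a relative median of -0.59, and 2 were lower without overlap (against 3.07% of all genes). Relative to all genes the markers stood at -0.59 and -0.72 in M-Shp2-/- replicates 1 and 2 and at 0.19 in replicate 3. Of these 8, Csf1r, the receptor for the growth factor CSF1, was called higher with SHP099 against WT, while 5 of the 8 had a negative log2 fold change there and the relative median was -0.35. The part of these cells in the results on the members was not tested.

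The 13 subunits encoded by mitochondrial DNA, which join the nuclear ones in complexes I, III, IV and V, were not called by limma in any comparison of all libraries (0 of 13, with 1, 0 and 4 at an unadjusted p under 0.05). Without M-Shp2-/- replicate 3, 4 of 13 were called higher in M-Shp2-/- against SHP099 (12.0% of all genes were), and without WT replicate 3, 1 was called lower with SHP099 against WT (466 of 11450 genes were). They were listed unevenly: mt-Co1 at 3035 ± 519 FPKM in WT beside mt-Co2 at 46.3 ± 4.11, mt-Co3 at 19.3 ± 3.63, mt-Atp6 at 16.1 ± 2.05 and mt-Atp8 at 0.890 ± 0.389 (SD, n = 3 each). Mt-Nd1 and mt-Cytb were at 1206 ± 249.7 and 1062 ± 152 FPKM. Relative to all genes the median was 0.05 in M-Shp2-/-, -0.06 with SHP099 and 0.10 between M-Shp2-/- and SHP099. Under quantile normalization the first 2 were 0.17 and 0.08, and with length and GC correction the first was 0.12. Without WT replicate 3 the first 2 were -0.07 and -0.09, and without M-Shp2-/- replicate 3 the first was 0.12. The complex I subunits mt-Nd2, mt-Nd3, mt-Nd4 and mt-Nd4l had log2 fold changes of 0.16 to 0.27 in M-Shp2-/- against WT, where the median of all genes was 0.15. Over the 13 subunits these changes ran from -0.11 to 0.35. Between M-Shp2-/- and SHP099, mt-Cytb, mt-Nd5 and mt-Nd6 were higher without overlap (3 of 13, against 7.90% of all genes) and mt-Co3 was lower (against 9.76%), and none passed (limma adjusted p of 0.326 to 0.494). Mt-Cytb was at 1204, 1082 and 901 FPKM in WT, 1315, 1408 and 1287 in M-Shp2-/-, and 1142, 1206 and 1179 with SHP099.

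Of 40 other assembly factors tested out of 46 listed, 0 were called, and their relative median was 0.12 in M-Shp2-/- and 0.01 with SHP099 against WT. Across the scalings these medians ran from 0.06 to 0.14 and from -0.02 to 0.01. Uqcc3, a factor of complex III, came nearest (log2 fold change 0.47 with SHP099, SE 0.12, limma adjusted p = 0.0567). Among 20 genes of electron carriers and coenzyme Q, the groups did not overlap for 9 higher with SHP099 against WT (45%, against 27.9% of all genes) and 5 higher in M-Shp2-/- (25%, against 16.0%), and Coq10a was called with SHP099: it was at 14.1, 15.2 and 12.1 FPKM in WT and 22.9, 23.0 and 20.2 with SHP099 (log2 fold change 0.64, SE 0.11, limma adjusted p = 0.0267). Dhodh, which feeds electrons from pyrimidine synthesis into coenzyme Q, had the highest log2 fold change of this list in M-Shp2-/- (0.64, SE 0.24, limma adjusted p = 0.465). Coq8a, a kinase-like protein of coenzyme Q synthesis, had the highest with SHP099 against WT, 1.05, and was not called (limma adjusted p = 0.0752).

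Of 17 genes of the citrate cycle, 0 were called; Suclg2, the GTP-forming succinyl-CoA ligase subunit, had the highest log2 fold change with SHP099 (0.79, SE 0.20, limma adjusted p = 0.0564). The relative median of these genes was 0.02 in M-Shp2-/- and 0.04 with SHP099, and the former was 0.10 under quantile normalization. Of 13 regulators of mitochondrial biogenesis tested out of 15, 0 were called; Tfam, the packaging protein of mitochondrial DNA, was at 13.2 ± 1.87 FPKM in WT, 17.8 ± 1.35 in M-Shp2-/- and 16.2 ± 1.87 with SHP099 (SD, n = 3 each). Among 12 genes of coupling and the succinate axis, 0 were called, with relative medians of -0.11 in M-Shp2-/- and -0.14 with SHP099. These ran from -0.13 to -0.01 and from -0.16 to -0.01 across the scalings. Slc25a4, the ATP and ADP exchanger of the inner membrane, was at 34.8 ± 7.67, 47.3 ± 5.61 and 46.9 ± 3.75 FPKM in WT, M-Shp2-/- and SHP099 (SD, n = 3 each). Nos2, whose nitric oxide inhibits complex IV, spread from 45.1 to 324 FPKM within WT and from 11.7 to 72.5 FPKM within M-Shp2-/- (log2 fold change -2.61, SE 0.92, limma adjusted p = 0.465).

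Other large gene sets, matched by symbol prefix, were tested in the same fits: Mrpl or Mrps, Timm or Tomm, Psma to Psmd, and Rpl or Rps. A prefix match need not be a subunit, and the last set holds symbols with a pseudogene suffix (Rpl10-ps3 and Rpl36a-ps1). With SHP099 against WT, 1 of 76 mitochondrial ribosomal protein genes was called (Mrpl57, log2 fold change 0.64, limma adjusted p = 0.0318), 0 of 23 import genes, 2 of 38 proteasome genes (Psmd9 and Psmd8) and 0 of 88 Rpl and Rps genes. All these calls were higher, where 4.55% of all genes were called higher and 2.41% lower. Without WT replicate 3, 1 of the 76 was called higher and 2 lower, and of the 38, 3 higher and 1 lower, where 807 and 466 of 11450 genes were. In M-Shp2-/- against WT 0 were called in each of these sets (0% of all genes were called higher and 0.0873% lower). The relative medians in M-Shp2-/- were 0.06, 0.05, -0.07 and -0.12 in this order, and with SHP099 they were -0.01, -0.02, -0.01 and -0.09. These values also moved: under quantile normalization the Rpl and Rps genes turned to 0.03 and 0.04 and the proteasome genes to 0.01 and 0.06. The mitochondrial ribosomal protein genes were at 0.15 in M-Shp2-/- without its replicate 3 and at -0.07 with SHP099 without WT replicate 3.

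Transcript length and base composition were set beside the members' changes. Across the 87 members, Pearson's r between log2 transcript length and log2 fold change was 0.188 in M-Shp2-/- and 0.120 with SHP099, and that with GC content was -0.121 and 0.127; across 11348 genes they were 0.0382, 0.0329, 0.0822 and 0.0624. Between M-Shp2-/- and SHP099 the members' r was 0.0371 with length and -0.291 with GC content, the largest of these, against -0.00276 and 0.00427 across all genes. Members are short transcripts, with a median of 789.7 bases against 1601 over all genes tested, and share their libraries, so these are descriptions across genes. After each library was corrected for both properties, the relative median of the members was 0.01 in M-Shp2-/- and -0.02 with SHP099, that of complex V with SHP099 -0.16 and that of the assembly factors 0.17 and 0.16.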

How the data were processed

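According to the study's methods, the authors mapped read pairs with HISAT2 2.0.4, counted reads per gene with HTSeq 0.9.1 and deposited FPKM for 9 libraries; the genome build, annotation and strand setting are not given in the sources used here. A second table of gene spans was not used. FPKM times mean transcript length (GENCODE M21) fell on whole reads, within 0.05, for 96.3% to 96.7% of values of up to 50 reads, which gives 39839389 to 50985460 reads per library.

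Genes averaging 1 FPKM or more were analysed as log2(FPKM + 1) with limma 3.58.1 (eBayes with a trend) in R 4.3.3, on the 6 libraries of each comparison, and called at a Benjamini-Hochberg adjusted p of at most 0.05 over 11450 genes. On this scale the changes of low genes are understated. Correlation between libraries of a group was 0.954 to 0.992. The procedure was tested on simulated data. Alternatives were other pseudocounts, filters, scalings, fits and call rules, the replicate block, voom on recovered reads, correction for length and GC, and each replicate left out; leaving out WT and M-Shp2-/- replicate 3 together, members with exon overlap, or Uqcrc1 and Atp5a1 was chosen after seeing the data. Plots were made with Python 3.11.15 and matplotlib 3.10.9.

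Members and lists were chosen with earlier results of these data known. Named genes were drawn from Ptpn11; in each class the 2 most abundant members and the least abundant; in each comparison the 3 highest and 3 lowest members by fold and those called; the core, complex II, F1, subunit c and tissue-form lists; the mtDNA-encoded subunits; in the other lists genes called and the extremes; and of markers the most abundant and those at 0. Cox7b2, Ndufa8, Ndufa12, Atp5o, Itgad and Csf1r were chosen after their values were seen. Coa1 was not matched, and some genes of these lists are not reported here.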

Additional observations from a re-analysis of the deposited data

How the results depend on the processing

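The counts rest on few calls and on single libraries. With 3 libraries a group, of unknown origin, pooled cells and FPKM in place of counts, small changes cannot be seen, and members listed near 0 have no measured level. The cause of the shifts below was not tested.

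In M-Shp2-/- against WT, 10 genes were called by limma: 6 without a trend in eBayes, 1 by the study's rule (adjusted p of at most 0.005 and log2 fold change of at least 1), and 1 to 8 with each replicate left out. Members called stayed at 0 in every setting. Their relative median of 0.00 became 0.116 without the filter and 0.0603 with quantile normalization, and it was -0.0365 to 0.0706 with each replicate left out. In SHP099 against WT, 797 genes were called: 74 without the filter, where more genes are tested, 19 by the study's rule, and 47 to 1273 with each replicate left out. Members called went from 2 to 0 without the filter, 5 with a minimum mean FPKM of 5 (where 889 of 8285 genes were called) and 1 with median-of-ratios scaling. They were 1 with length and GC correction, 0 by the study's rule and 0 to 3 with each replicate left out. The members' relative median of -0.05 became 0.0677 without the filter and 0.0186 with quantile normalization, and it was -0.0716 to -0.00366 with each replicate left out.

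In M-Shp2-/- against SHP099, 8 genes were called: 3 without the filter, 17 with a minimum mean FPKM of 5, 3 in a fit of all 9 libraries, 4 with length and GC correction, 0 by the study's rule and 0 to 2277 with each replicate left out. Members called were 0 to 22 with each replicate left out, 22 of them only without M-Shp2-/- replicate 3. The settings chosen after seeing the data left the members' relative medians within 1 SD of the main values. This SD, of the members' relative level between libraries of a group, was 0.115, 0.0649 and 0.113 in the 3 comparisons. It is larger than the medians themselves, so that staying within it says little. Leaving out WT and M-Shp2-/- replicate 3 together gave 0.0494 in M-Shp2-/- against WT.

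With the replicate number as a block (replicate block), 2, 591 and 0 genes were called in the 3 comparisons in this order, with 0, 2 and 0 members. The labels do not say whether equal numbers pair samples. Deviations of libraries with the same number correlated at 0.49, -0.43 and 0.19 between M-Shp2-/- and WT. They correlated at -0.04, -0.09 and 0.45 between SHP099 and WT, and at -0.01, 0.18 and -0.05 between M-Shp2-/- and SHP099. Those of different numbers reached -0.63 and 0.54 between M-Shp2-/- and WT. With 3 libraries a group these values cannot decide on pairing. The block moved the genes at an unadjusted limma p under 0.05 from 1204, 3061 and 1437 to 2340, 3317 and 1640.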

Other observations

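Mrps23, a mitochondrial ribosomal protein, was at 7.85, 5.95 and 1.61 FPKM in WT, 1.94, 1.61 and 0.739 in M-Shp2-/-, and 1.03, 1.46 and 1.56 with SHP099, with WT replicate 3 near the other groups. It had the lowest log2 fold changes of its set, -1.20 and -1.22 against WT (limma adjusted p = 0.465 and 0.129). Psmb9, the interferon-inducible catalytic subunit of the immunoproteasome, was at 46.1, 58.8 and 94.3 FPKM in WT, 33.4, 37.4 and 36.2 in M-Shp2-/-, and 66.7, 50.4 and 82.0 with SHP099. All M-Shp2-/- libraries lay below the others, with log2 fold changes of -0.82 against WT and -0.85 against SHP099 that were not called (limma adjusted p = 0.454 and 0.220). Psmb6, the constitutive subunit, was at 688 ± 93.0, 642 ± 89.1 and 522 ± 47.2 FPKM in WT, M-Shp2-/- and SHP099 (SD, n = 3 each), the lowest log2 fold change of the proteasome with SHP099 (-0.39, limma adjusted p = 0.104).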
